A study of Mus musculus with 12 samples.

Results

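Tia1 and Tial1 are paralogous genes for RNA-binding proteins, and they were followed here by their symbols in every deposited table, 2 of 52636 listed genes. The hippocampus of 12 mice was sequenced, 3 in each of 4 groups: males with low extinction, males with high extinction, females with low extinction and females with high extinction. Every mouse was a wild-type C57BL6/J animal aged 18 weeks, and each library came from a different mouse. In fear extinction an animal that has learned to fear a cue or place stops showing fear once that cue or place no longer brings harm, and the labels call each mouse low or high on it without giving the behavioural scores. The title of the series names Tia1 as a gene that holds extinction back. The questions addressed here were how high the pair of paralogs was expressed in each mouse, and whether each of them, and their ratio, differed between low and high extinction.

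TIA1 and its paralog TIAL1, also called TIAR, carry RNA recognition motifs that bind U-rich and AU-rich RNA, and a glutamine-rich tail that lets the proteins assemble. In the nucleus they bind next to weak donor splice sites and help the U1 small nuclear ribonucleoprotein to settle there, as worked out mainly for the human proteins. In the cytoplasm they hold back the translation of bound mRNAs, and after stress has phosphorylated the initiation factor eIF2α they gather stalled mRNAs into stress granules. In neurons TIA1 has also been found together with the microtubule protein tau, and mutations in the tail of human TIA1 cause a distal myopathy.

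Tia1 (ENSMUSG00000071337.11) occupies bases 86404219 to 86433405 of chromosome 6 in GRCm38, plus strand, and Tial1 (ENSMUSG00000030846.15) occupies bases 128439777 to 128461717 of chromosome 7, minus strand. GENCODE M21 lists 28 transcripts of Tia1, of which 5 are protein-coding and 14 are retained-intron forms. It lists 14 transcripts of Tial1, of which 6 are protein-coding and 4 are retained-intron forms. The transcripts of the paralogs shared 0 stretches of 50 bases with each other, so a read of that length from either gene could not match the other exactly. Transcripts of other genes held 2.59% of the stretches of Tia1 and 0 of the 7515 stretches of Tial1. Of the 429 shared stretches of Tia1, 304 were also in Gm44790, an annotated coding gene that overlaps the end of Tia1 on the same strand. Reads of those stretches could belong to either gene, and Gm44790 lay between 0 and 2.87 TPM in the 12 libraries.

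The stretches just upstream of both genes are shown so that the promoters of the paralogs can be set side by side. Both come from RefSeq's promoter windows on GRCm38.p6, are printed 5′ to 3′ on the strand of the gene, and end before the first annotated transcript start. RefSeq has 1 window for Tia1 and 2 for Tial1, of which the one farthest upstream is shown and described. Capitals mark motif matches. The Tia1 stretch lies at chr6:86403969-86404202 and the Tial1 stretch at chr7:128461727-128461923.

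Tia1: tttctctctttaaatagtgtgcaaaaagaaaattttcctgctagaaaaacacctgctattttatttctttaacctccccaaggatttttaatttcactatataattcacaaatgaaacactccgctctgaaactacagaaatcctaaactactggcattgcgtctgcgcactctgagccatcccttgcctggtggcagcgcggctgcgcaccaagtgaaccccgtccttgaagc

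Tial1: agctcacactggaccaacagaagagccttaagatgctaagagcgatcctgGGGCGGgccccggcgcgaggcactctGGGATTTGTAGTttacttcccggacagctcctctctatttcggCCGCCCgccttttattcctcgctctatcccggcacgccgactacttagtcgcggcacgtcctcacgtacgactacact

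The printed Tia1 stretch held 42.7% G and C and the Tial1 stretch 58.4%. In the whole 300-base RefSeq windows the shares were 48% for Tia1 and 59.7% for Tial1, beside a median of 52.7% over 32851 windows. Both strands of each whole window were searched for 9 motifs: the TATA box (TATAAA), the CCAAT box (CCAAT), the GC box (GGGCGG), the ETS site (CCGGAA), the cAMP response element (TGACGTCA), the NRF1 site (GCGC, any base, TGCGC), the ZNF143 site (ACTACA, any 2 bases, TCCC), the E-box (CACGTG) and the heat shock element (GAANNTTC). The Tia1 window held 1 match, an NRF1 site that starts 26 bases after the transcription start and therefore lies beyond the printed stretch, and 4.6% of all windows hold that motif. The Tial1 window held 2 GC boxes, a motif in 35.7% of all windows, and 2 ZNF143 sites, a motif in 1.81% of all windows. The printed ZNF143 match of Tial1 runs on the opposite strand. The other lies across the window's own start at base 128461673, which is inside the annotated gene and beyond the printed stretch. None of the 9 motifs was in the windows of both genes.

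Levels are given as the deposited TPM, abundances corrected for transcript length that sum to a fixed total per library, so levels of different genes can be compared within a library. Read depth per library is unknown. Summed over genes, the authors' deposited mean normalized counts came to 42574079 in males and 43369743 in females. Each library had from 18170 to 19062 genes at 1 TPM or more. RNA derived from ribosomal RNA genes took from 5.96% of TPM, in a low-extinction female, to 20.4%, in a high-extinction male. All 10 hippocampal marker genes (Prox1, Wfs1, Fibcd1, Neurod6, Zbtb20, Spink8, Dsp, C1ql2, Bok and Grik4) averaged at least 1 TPM, and their sum lay between 565 and 699 TPM in every library.

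Both paralogs belonged to the upper part of the expressed transcriptome. Tia1 averaged 82.8 ± 18.0 TPM and Tial1 65.3 ± 8.07 TPM over all libraries (SD, n = 12). Tia1 lay above 84.7% to 94.2% of the genes expressed at 1 TPM or more in its library, and Tial1 above 84.3% to 90.4%.

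Tia1 had 69.0, 103 and 93.9 TPM in low-extinction males, against 51.8, 63.5 and 92.5 TPM in high-extinction males. The groups overlapped, since the third high-extinction male reached the level of the low-extinction males and the first low-extinction male lay near the second high-extinction one. In low-extinction females Tia1 had 78.8, 117 and 92.8 TPM, against 80.3, 76.8 and 73.8 TPM in high-extinction females. Here the first low-extinction female lay within the narrow range of the high-extinction females, and the other two lay above it.

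Tial1 had 68.4, 64.9 and 62.1 TPM in low-extinction males, against 57.7, 60.2 and 58.7 TPM in high-extinction males. Each low-extinction male was above each high-extinction male, by a small margin. In low-extinction females Tial1 had 75.9, 82.2 and 73.2 TPM, against 64.2, 56.2 and 60.03 TPM in high-extinction females. Again the groups did not overlap, and the gap in TPM was wider than in males. Low above high with no overlap in both sexes held for 0.854% of the 18499 genes averaging 1 TPM or more, for 4.19% in males alone and for 14.2% in females alone. In a bulk sample a change in the number of cells of a type and a change in RNA per cell cannot be told apart.

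**Figure D1:**
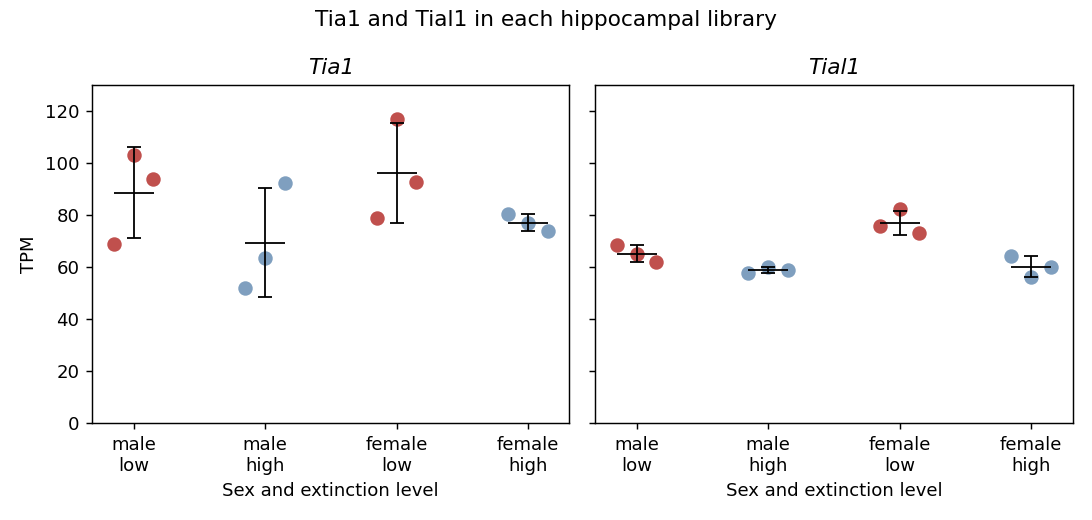
TPM of Tia1 (left) and Tial1 (right) in each of the 12 libraries, by sex and extinction level. Points are single mice, and the black lines show the mean and SD of 3 mice. The Tial1 points at low extinction lie above those at high extinction in both sexes, while the Tia1 points overlap.

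Ordered by mean level, the groups of Tia1 ran from low-extinction females at 96.2 TPM through low-extinction males at 88.6 and high-extinction females at 77.0 to high-extinction males at 69.3 TPM, and each neighbour in that order overlapped the next. For Tial1 the order was the same, with means of 77.1, 65.1, 60.1 and 58.9 TPM, and only the low-extinction females stood clear of their neighbour. The tables of the sexes were deposited separately, so levels were not tested between males and females.

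In TPM the paralogs differed in how much they varied from library to library. Within the 4 groups the SD of log2(TPM + 1) was 0.29 for Tia1 and 0.07 for Tial1. Among genes within 1.5-fold of its own mean level, Tia1 varied more than 93.9% of 1906 genes, and Tial1 more than 12.6% of 2385 genes. Whether counts per library share this contrast is unknown, since none were analysed. In the authors' deposited count-based tables the standard error of the log2 change was 0.07 in males and 0.06 in females for each paralog. DESeq2 sets a gene's spread partly from other genes of like count, so these values do not measure the spread of each paralog alone.

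Within a library Tia1 was usually the more abundant paralog. The ratio of Tia1 to Tial1 TPM was 1.27 ± 0.23 (SD, n = 12) and exceeded 1 in 11 of 12 libraries, with a high-extinction male at 0.897 as the exception. On the log2(TPM + 1) scale Tia1 exceeded Tial1 by 0.31 ± 0.27 (SD, n = 12, two-sided permutation test over paired values, p = 0.00439). In females alone the difference was 0.33 (n = 6, two-sided exact permutation p = 0.0312, the smallest possible) and in males 0.30 (n = 6, two-sided exact permutation p = 0.156).

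The ratio was not shown to differ with extinction. It was 1.01, 1.58 and 1.51 in low-extinction males, against 0.897, 1.05 and 1.58 in high-extinction males. In low-extinction females it was 1.04, 1.42 and 1.27, against 1.25, 1.37 and 1.23 in high-extinction females. The low-extinction libraries therefore spanned the high-extinction ones in females and shared most of their range in males. The log2 ratio at low minus high extinction was 0.23 in males (two-sided exact permutation p = 0.6), -0.05 in females (two-sided exact permutation p = 0.9) and 0.09 averaged over the sexes (two-sided exact permutation p = 0.64 over 400 assignments). Leaving out single libraries gave averages from 0.0022 to 0.20, so neither an equal nor an unequal change of the paralogs was established.

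**Figure D2:**
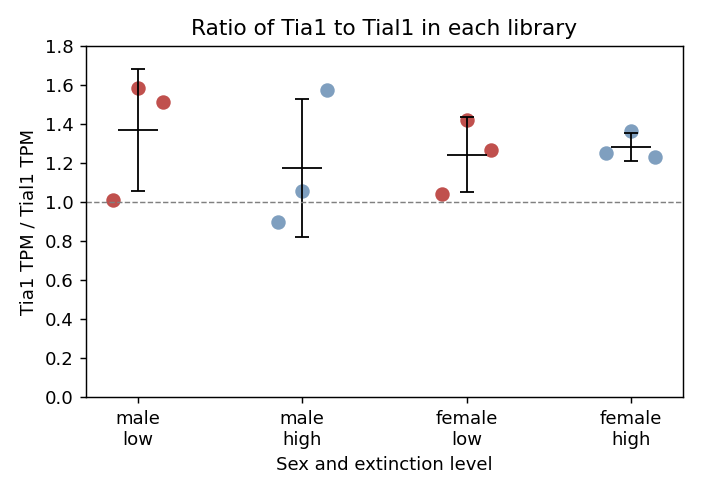
Ratio of Tia1 TPM to Tial1 TPM in each of the 12 libraries, by sex and extinction level, with the mean and SD of 3 mice in black and a dashed line at equal levels. All points but 1 high-extinction male lie above 1, and the low and high groups share most of their range in both sexes.

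On log2(TPM + 1) the average change of Tial1, low minus high extinction, was 0.25 over both sexes, and the two-sided exact permutation test gave p = 0.005, the smallest that 400 assignments within sex allow. Males showed 0.14 and females 0.35, and in both the two-sided exact permutation test gave p = 0.1, below which 3 libraries against 3 cannot go. The same smallest p on average was reached by 1.04% of 18499 genes, and 7.32% reached 0.05 or less. The median change over all genes was -0.02 in males and 0.06 in females. With median ratio scaling within each sex, the change of Tial1 was 0.17 in males and 0.29 in females, so the sexes lay closer together. The average change of Tia1 was larger, 0.34, but varied more (two-sided exact permutation p = 0.065 over 400 assignments). Without single libraries the average ran from 0.22 to 0.27 for Tial1, with exact p from 0.005 to 0.01, and from 0.24 to 0.45 for Tia1, with exact p from 0.03 to 0.165. Tia1 passed 0.05 only without the third high-extinction male, the first low-extinction male or the first low-extinction female, the libraries that lay nearest to the opposite group.

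Fitted with limma over all genes, neither paralog passed after Benjamini-Hochberg adjustment. The average change of Tial1 had a 95% interval from 0.14 to 0.36 (limma adjusted p = 0.286), and that of Tia1 from 0.01 to 0.66 (limma adjusted p = 0.632). For Tial1 the interval was -0.03 to 0.32 in males (limma adjusted p = 0.850) and 0.18 to 0.53 in females (limma adjusted p = 0.414). For Tia1 it was -0.16 to 0.91 in males (limma adjusted p = 0.882) and -0.02 to 0.62 in females (limma adjusted p = 0.581). Of all genes limma called 0% in males, 0.0107% in females and 0% on average, while 1151 genes in males, 1648 in females and 1424 on average had an unadjusted p under 0.05.

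The authors' deposited tables, made with DESeq2 from counts of the same libraries, called Tia1 in both sexes and Tial1 in females. Genes called higher at low extinction were 0.115% of 20050 in the male table and 0.569% of 15644 in the female table, and 0.0448% in both, 7 genes with Tia1 among them. The authors' deposited table for females put Tial1 1.16-fold higher at low extinction (log2 change 0.22, SE 0.06, DESeq2 adjusted p = 0.0422) and Tia1 1.18-fold higher (log2 change 0.23, SE 0.06, DESeq2 adjusted p = 0.0363). The one for males, also the authors' deposited table, gave Tial1 a log2 change of 0.12 (SE 0.07, DESeq2 adjusted p = 0.717), which was not called, and Tia1 one of 0.28 (SE 0.07, DESeq2 adjusted p = 0.0441). The mean normalized count in the authors' deposited tables was 4914 in males and 5364 in females for Tial1, and 6293 in males and 6832 in females for Tia1. All 3 calls lay close to the threshold. With Benjamini-Hochberg over all deposited p-values and no filter the adjusted p was 0.0744 for Tia1 in males, 0.0794 for Tia1 in females and 0.0915 for Tial1 in females.

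The call of Tial1 in females and not in males does not show a difference between the sexes, so the difference itself was tested. By that test 0.409% of genes were called on the authors' deposited fold changes and 0.00541% by limma, and neither paralog was among them. Set as male minus female, the difference in change of Tial1 was -0.10 by the fold changes of the authors' deposited tables (95% interval -0.27 to 0.08) and -0.21 on log2(TPM + 1) (two-sided exact permutation p = 0.27), or -0.12 with median ratio scaling (two-sided exact permutation p = 0.535). For Tia1 the difference was 0.04 by the authors' deposited tables (95% interval -0.15 to 0.23) and 0.07 on log2(TPM + 1) (two-sided exact permutation p = 0.84), or 0.17 with median ratio scaling (two-sided exact permutation p = 0.635). The limma interval for Tia1 was -0.58 to 0.72 (limma adjusted p = 0.966). The permutations exchanged labels within each sex and so assume no change in either sex. Where both sexes change, their p-values cannot decide whether the sexes differ.

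When the fold changes of the authors' deposited tables were averaged over the sexes, both paralogs passed. Tia1 had an average log2 change of 0.25 (SE 0.05, adjusted p = 0.000123 by a normal test on the DESeq2 estimates) and ranked 22nd of 15642 genes by p. Tial1 had an average of 0.17 (SE 0.04, adjusted p = 0.0236 by the same test on the DESeq2 estimates) and ranked 99th. This averaging called 1.05% of genes, and 0.575% were called higher at low extinction.

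**Figure D3:**
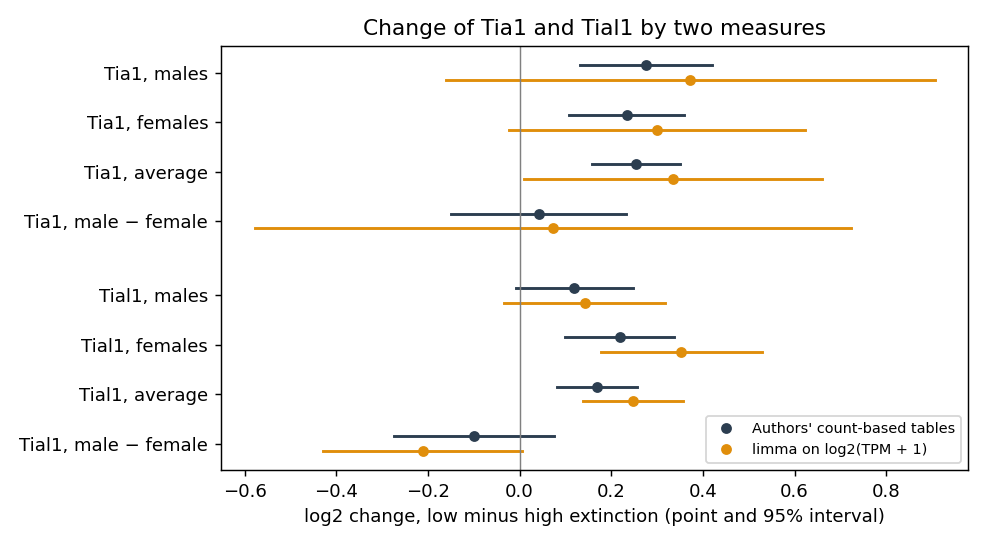
Log2 change at low minus high extinction for Tia1 and Tial1 with 95% intervals, in males, in females, averaged over the sexes and as the male minus the female change. Dark points come from the authors' count-based tables and orange points from limma on log2(TPM + 1). The points of both measures lie above 0 in males, in females and on average, and the TPM intervals of Tia1 are the widest.

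The measures differed most for Tia1. The standard error of its change in males was 0.30 on log2(TPM + 1) and 0.07 in the authors' deposited table, a ratio of 4.04. Among 1879 genes of like level the median ratio was 1.22, and 96.4% lay below that of Tia1. In females the ratio for Tia1 was 2.61, above 89.7% of genes of like level, whereas for Tial1 it was 0.666 in males and 1.20 in females.

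Across the 12 libraries, with the mean of each sex removed, Tia1 and Tial1 were not shown to vary together. Pearson's r was 0.49 (permutation p = 0.107, adjusted p = 0.214 over 4 relations) and Spearman's rho 0.57 (permutation p = 0.0583, adjusted p = 0.206). Without the 2 libraries farthest from the median of Tia1, both from low-extinction mice, r was 0.24 (permutation p = 0.511). Within males r was 0.31 (n = 6, exact permutation p = 0.538) and within females 0.78 (n = 6, exact permutation p = 0.0486, adjusted p = 0.194). With the mean of each of the 4 groups removed, r was 0.09 (permutation p = 0.775).

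**Figure D4:**
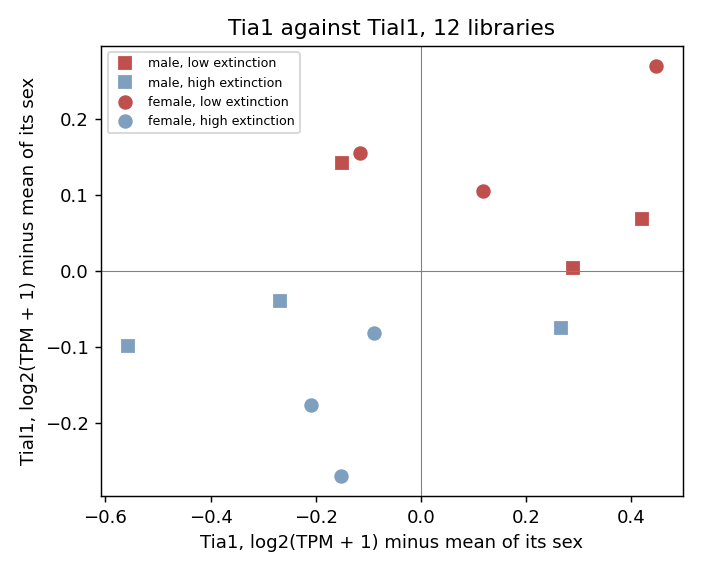
Tia1 against Tial1 in 12 libraries, as log2(TPM + 1) minus the mean of the same sex; squares are males, circles females, red low and blue high extinction. The low-extinction points all lie above 0 for Tial1 and the high-extinction points all below it, while along the Tia1 axis the groups overlap.

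Neither paralog was among the genes that followed the other most closely. Among 10655 other genes averaging 10 TPM or more, Tial1 ranked 2149th by Pearson's r with Tia1, and Tia1 ranked 1065th by r with Tial1. The 5 genes closest to Tia1 were Nol4 (r = 0.95 over 12 libraries), the histone deacetylase gene Hdac2 (r = 0.93), the processed pseudogene Gm14269 (r = 0.92), the histone variant gene H3f3a (r = 0.92) and Uchl5 (r = 0.91), which encodes a deubiquitinase of the proteasome. These values describe likeness among genes picked for it and were given no test. On log2(TPM + 1), the measure they were picked on, their changes at low minus high extinction ran from 0.13 to 0.17 in males and from 0.10 to 0.14 in females. None of the 5 was called in the authors' deposited tables, beside 0.504% of all genes in males and 0.857% in females. Their log2 changes there ran from 0.02 to 0.21 in males and from -0.04 to 0.07 in females.

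Among the genes closest to Tial1 were the splicing factor gene Srsf11 (r = 0.89 over 12 libraries), the zinc finger gene Zkscan2 (r = 0.89), the syntaxin gene Stx3 (r = 0.87) and the fucosyltransferase gene Pofut2 (r = 0.86). Pofut2 followed Tial1 in females (r = 1.00, n = 6) but not in males (r = -0.37, n = 6). Of these genes only Zkscan2 was called in the authors' deposited tables, with a log2 change of 0.35 in males (SE 0.08, DESeq2 adjusted p = 0.00984) and 0.46 in females (SE 0.07, DESeq2 adjusted p = 1.52e-07). Srsf11 had log2 changes of 0.18 in males (SE 0.06) and 0.20 in females (SE 0.06, DESeq2 adjusted p = 0.0690) in the authors' deposited tables and did not pass. Those tables called 0.504% of all genes in males and 0.857% in females. On log2(TPM + 1), the measure they were picked on, the changes of the genes named here ran from -0.03 to 0.24 in males and from 0.24 to 0.51 in females. Tial1 itself separated low from high extinction in the same libraries. Changes of these genes in its direction, and calls, therefore follow in part from how they were picked.

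The expressed genes around the paralogs were not called, beside 0.504% of all genes called in males and 0.857% in females. At such shares, the lack of a call among so few genes says little about these regions. On either side of Tia1 lie Pcyox1, a prenylcysteine oxidase gene 7065 bases away, and C87436, 4969 bases away. In the authors' deposited tables Pcyox1 had log2 changes of -0.05 in males (SE 0.07) and -0.04 in females (SE 0.05), and C87436 of 0.03 in males (SE 0.11) and 0.03 in females (SE 0.11). Farther out, Snrpg, Gm44941, 2310040G24Rik and Pcbp1 had no adjusted p under 0.05 either. Around Tial1, the nearest expressed genes were Rgs10, 21019 bases away, a regulator of G protein signalling, and Bag3, 61899 bases away, a co-chaperone gene. Rgs10 had log2 changes of 0.01 in males (SE 0.12) and 0.06 in females (SE 0.10), and Bag3 of -0.31 in males (SE 0.14, DESeq2 adjusted p = 0.575) and -0.32 in females (SE 0.11, DESeq2 adjusted p = 0.205) in the authors' deposited tables. BC017158 and Inpp5f were not called, and the pseudogenes Gm6916 and Gm7258 have no adjusted p there.

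Other genes of the TIA1 pathway were read from 6 lists with 100 genes in all, leaving out the paralogs. The authors' deposited tables called 0 of 99 in males and 0 of 98 in females, beside 0.504% and 0.857% of all genes. Averaged over the sexes, the fold changes of the authors' deposited tables had 3 called among 98 tested, beside 1.05% of all genes: Zfand1 was higher, and Hspa1a and Hspa1b were lower at low extinction. The median log2 change over the 98 genes was -0.0048, against -0.02 over all 15642 genes.

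Among the stress granule core genes (33 tested) the median average change was -0.0024 and 16 lay above 0. Zfand1, which helps to clear stress granules, had an average log2 change of 0.31 (SE 0.08, adjusted p = 0.0342 by the normal test on the DESeq2 estimates). The most abundant of the list, the ribonucleoprotein gene Hnrnpa2b1 and the FET-family gene Ewsr1, had average changes of 0.03 (SE 0.04) and 0.09 (SE 0.04) and did not pass. Among proteins that share AU-rich targets with TIA1 (19 tested) the median was 0.0085, and the most abundant, Celf2 and Hnrnpab, had 0.08 (SE 0.04) and -0.06 (SE 0.04).

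Genes of eIF2 and the response to its phosphorylation (18 tested) had a median of -0.03, and 4 lay above 0. The transcription factor gene Atf4 had an average of -0.09 (SE 0.05) and the asparagine synthetase gene Asns -0.02 (SE 0.05), and neither passed. Genes of the U1 small nuclear ribonucleoprotein and donor site recognition (11 tested) had the highest median, 0.13, and 9 lay above 0, against 41.8% of all genes, yet none was called. Of these, Snrnp70, the U1-70K protein gene, had an average of 0.14 (SE 0.04, adjusted p = 0.0729 by the normal test on the DESeq2 estimates) and Rbm25 0.13 (SE 0.04, adjusted p = 0.118 by the same test). Snrpc, whose U1-C protein is the contact of human TIA1, had 0.15 (SE 0.14) at a mean of 3.71 TPM.

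Reported targets of the paralogs (13 tested), among them Actb, the β-actin gene, at 0.0085 (SE 0.04) and the helicase gene Eif4a1 at 0.06 (SE 0.05), had a median of -0.0014, and none was called. Tnf, the classical AU-rich target of TIA1, averaged 0.0178 TPM and was not tested. Among 6 reported partners the tau gene Mapt had -0.07 (SE 0.04) and Fastk, whose human protein was reported to bind TIA1, -0.01 (SE 0.06). The heat shock protein 70 genes Hspa1a and Hspa1b had average log2 changes of -0.59 (SE 0.13, adjusted p = 0.00347 by the normal test on the DESeq2 estimates) and -0.40 (SE 0.11, adjusted p = 0.0333 by the same test). Hspa1a and Hspa1b are nearly identical copies, so their reads may be split between them.

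**Figure D5:**
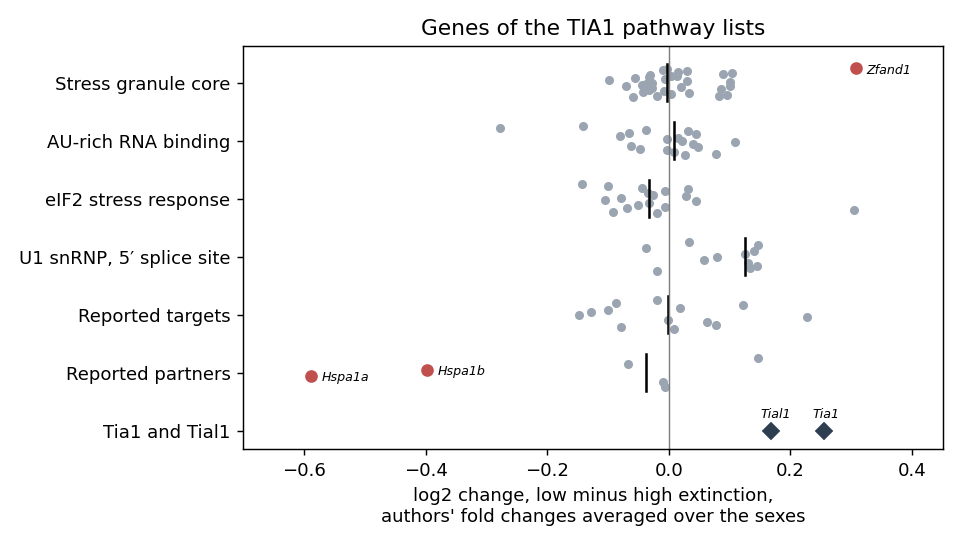
Average log2 change at low minus high extinction over both sexes, from the authors' fold changes, for each tested gene of 6 lists around TIA1 and for Tia1 and Tial1 (diamonds). Black bars are medians, and red points are genes with an adjusted p under 0.05. The list medians lie between -0.04 and 0.13, below Tia1 at 0.25 and Tial1 at 0.17.

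Some other measures separated the groups in the same libraries, each in 1 sex only. The 6 ependymal markers, all detected, summed to between 17.2 and 34.2 TPM in low-extinction males, against 48.9 and 57.6 TPM in high-extinction males. The 6 thalamic markers, all detected, summed to between 126 and 131 TPM in low-extinction females, against 84.9 and 100.1 TPM in high-extinction females. The 6 meningeal fibroblast markers, all detected, summed to between 78.2 and 95.8 TPM in low-extinction females, against 59.8 and 67.5 TPM in high-extinction females. The 12 immediate early genes, all detected, summed to between 338 and 363 TPM in low-extinction males, against 399 and 597 TPM in high-extinction males. The number of genes at 1 TPM or more was 18972, 18878 and 19062 in low-extinction females, against 18297, 18597 and 18325 in high-extinction females, without overlap, and the numbers overlapped in males. The 7 choroid plexus markers ranged from 22.7 to 3462 TPM over all libraries, and their groups overlapped in both sexes. The sums of neuronal, astrocytic, oligodendrocytic, microglial and endothelial markers also overlapped between low and high extinction in both sexes. The part of these measures in the changes of Tia1 and Tial1 was not tested. With ribosomal RNA-derived and mitochondrially encoded genes left out and the rest rescaled, the average change was 0.24 for Tial1 (two-sided exact permutation p = 0.005) and 0.32 for Tia1 (two-sided exact permutation p = 0.06).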

How the data were processed

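Polyadenylated RNA of dissected hippocampi was made into libraries with an mRNA kit, per the labels' protocols. Per the submitters' processing notes, the tools were DESeq2, HTSeq, StringTie 1.3.3b, Bowtie2 and TopHat2, and the builds GRCm38.p5 and mm10. The tool behind each file, and the strand setting of the counts, are not given in the sources used. Mouse by mouse, the authors deposited TPM in a table for each sex, and TPM keeps no record of depth. Per the file headers, they also deposited for each sex a DESeq2 table with the mean normalized count (a signal), the log2 fold change with standard error, a score (the Wald statistic) and a raw and an adjusted p-value. The deposited log2 fold changes name no direction. Their correlation across genes with the TPM change, low minus high extinction, was -0.58 (males) and -0.46 (females), and 101 of 101 and 133 of 134 called genes had the opposite sign, so they were multiplied by -1.

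Each TPM column was given to the mouse whose name it carries. No count model was run, since only TPM and summary tables were used. Replicates are separate mice, and no 2 of the 12 libraries were identical. Exact permutations exchanged extinction labels within each sex on log2(TPM + 1), a scale that understates how far low genes change. limma 3.58.1 (R 4.3.3), its prior variance following mean level, was run on genes averaging 1 TPM or more, with Benjamini-Hochberg adjustment at 0.05. Its code was tried on simulated data with planted changes far larger than those of the paralogs. That trial does not show whether changes as small as theirs could be called. For the average over sexes, the authors' fold changes were averaged with their standard errors and tested against a normal distribution, adjusted over the 15642 genes with an adjusted p in both tables. Named genes were the paralogs, genes overlapping them, the 3 nearest genes on each side that averaged 1 TPM or more, the 5 most correlated genes above 10 TPM (1 of them is not reported here), and in each list the called genes or the 2 most abundant. Zfand1, Hspa1a, Hspa1b, Snrpc, Tnf, Luc7l, Luc7l2, Luc7l3 and Prpf39 were named after their values were seen. The members and lists were chosen with earlier results of these data known. Positions are from GENCODE M21 on GRCm38. Other steps used Python 3.11.15, scipy 1.17.1 and matplotlib 3.10.9. Alternatives were another pseudocount of 0.1, other scalings and filters, no variance trend and leaving out each library.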

Additional observations from a re-analysis of the deposited data

How the results depend on the processing

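Tial1 kept its direction in males, in females and on average under each pseudocount, scaling and left-out library tried, without single libraries from 0.11 to 0.18 (males), 0.31 to 0.40 (females) and 0.22 to 0.27 (average). Tia1 did so too, from 0.19 to 0.60 (males), 0.15 to 0.43 (females) and 0.24 to 0.45 (average). Chosen after the data were seen, the authors' deposited fold changes passed their DESeq2 threshold where the exact test on TPM did not for Tia1 (0.28 in males and 0.23 in females) and for Tial1 in females (0.22). Averaged here over the sexes and tested against a normal distribution, those of Tia1 (0.25) passed too. The male minus female change of Tia1 ran from -0.11 to 0.30 without single libraries and fell below 0 without the first high-extinction male (-0.11), the second low-extinction male (-0.04) or the first low-extinction female (-0.06). The male minus female change of Tial1 ran from -0.26 to -0.16. With median ratio scaling the male minus female change was -0.12 for Tial1 (exact permutation p = 0.535) and 0.17 for Tia1 (exact permutation p = 0.635), by permutations that assume no change in either sex. The ratio in females turned to 0.069 without the first low-extinction female and ran from -0.16 to 0.069, in males it ran from 0.06 to 0.46, on average from 0.0022 to 0.20, and as male minus female from 0.11 to 0.51. The level of Tia1 over Tial1 ran from 0.28 to 0.36. The authors' male table called 60 genes with Benjamini-Hochberg over all 34245 deposited p-values, against 101 over the 20050 genes with a deposited adjusted p. The female table called 93 over 34509 p-values, against 134 over 15644 genes. Without single libraries limma called 2 to 6 genes in males, 4 to 10 in females, 0 to 3 on average and 1 to 4 as male minus female. With no filter on low values it called 1 gene in females and 2 as male minus female, and with no variance trend 2 as male minus female. No paired analysis was possible because low- and high-extinction mice of the same sex share no number in their names, and what the numbers mean is not stated. Depth per library is unknown, and 3 mice per group limit each comparison within a sex to an exact p of 0.1.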

Other observations

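Within the U1 list, Luc7l3, a U1-associated splicing gene, came nearest to the threshold, with an average log2 change of 0.15 (SE 0.04, adjusted p = 0.0502 by a normal test on the DESeq2 estimates of the authors' deposited tables). Luc7l2 had 0.13 (SE 0.04, adjusted p = 0.108) and Prpf39 0.13 (SE 0.05, adjusted p = 0.234) by the same test on the DESeq2 estimates, while Luc7l had -0.02 (SE 0.05). The female changes were 0.17 for Luc7l3, 0.19 for Luc7l2 and 0.22 for Prpf39, and the male changes were 0.12, 0.08 and 0.04 for the same genes in the authors' deposited tables. None passed in either sex.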
